A study of Rattus norvegicus with 20 samples.

Results

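The genes of heterotrimeric G protein subunits and of RGS proteins were followed across rat brain arrays from animals that had breathed oxygen or isoflurane. They were found by symbol, as every gene whose name is Gna, Gnb or Gng with the rest naming a subunit, or Rgs with a digit. This gave 48 of 14217 named genes, of which 14 were alpha subunits, 5 beta subunits, 11 gamma subunits and 18 Rgs genes. One of the Rgs genes, Rgs7bp, encodes a binding protein of RGS proteins and no RGS protein. Each gene was read from 1 probe set, the one with the highest mean signal over all arrays, and 40 of the 48 passed the filter on low signal. The 8 that did not were Gnat1, Gnat2, Gnat3, Gngt1, Gngt2, Rgs1, Rgs18 and Rgs22.

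The rats were 20 Sprague Dawley males, aged 20 weeks and of 250 to 300 g. The tissue is labelled brain cortex and 1 array was made per rat. In the isoflurane group, 10 rats breathed 2% isoflurane in oxygen, stated as 1.4 MAC (the unit of anaesthetic potency), for 15 minutes, and in the oxygen group 10 breathed oxygen alone for 15 minutes. All recovered for 6 hours before the brain was taken. Signals are log2 of Affymetrix array intensities, scaled per array by the authors. Levels are compared between arrays, and the levels of different genes are not compared.

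The arrays of both groups fell into 2 sets by their Pcp2 signal; Pcp2 is a Purkinje cell protein whose GoLoco motif binds G protein alpha subunits. The high-Pcp2 set held 11 arrays, which were replicates 5 to 10 of oxygen and 1, 3, 7, 8 and 9 of isoflurane, and the low-Pcp2 set held 9, which were replicates 1 to 4 of oxygen and 2, 4, 5, 6 and 10 of isoflurane. Linear Pcp2 signal was between 12436 and 18438 on the high set and between 22.0 and 1632 on the low set, where the highest value belonged to isoflurane replicate 10. The summed signal of 4 cerebellar granule cell markers was between 15.09 and 15.52 on the high set and between 9.51 and 12.36 on the low set. That of 6 cortical projection neuron markers was between 10.64 and 11.58 on the high set and between 12.64 and 14.07 on the low set. Of these 6, Camk2a, Fezf2 and Emx1 were higher on every low-Pcp2 array, while Tbr1, Neurod6 and Neurod2 overlapped. The mean of Neurod2 was higher on the high set (9.75 against 9.35). By the sums, the label brain cortex was thus met more by the 9 low-Pcp2 arrays than by the 11 high-Pcp2 arrays. Isoflurane replicate 10 had both the highest granule cell sum of the low set, 12.36, and its lowest cortical sum, 12.64. Within the low set, isoflurane replicates 2, 4, 5 and 6 stood apart. They correlated with each other at 0.976 to 0.982 over the tested probe sets and with the other low-Pcp2 arrays at 0.855 to 0.922, while those others correlated among themselves at 0.927 to 0.973. Called changes of members that rest on these 4 arrays are given without them too, and for the gene lists the medians are. Within the low set this leaves isoflurane replicate 10 alone against 4 oxygen arrays, assumed to vary like them, a fit in which 0% of all genes were called. There the size of a change can be read and a missing call says nothing.

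As background, a heterotrimeric G protein is an alpha subunit that binds GTP and a beta-gamma pair, which separate when a receptor is activated. The alpha subunit sets the effector, such as adenylyl cyclase for the stimulatory and inhibitory classes and phospholipase C for the Gq class. RGS proteins speed the hydrolysis of GTP by alpha subunits and so shorten the signal, and brain regions are known for different mixtures of subunits and RGS proteins, with Rgs9 and Gng7 well known from striatum and Rgs8 from Purkinje cells.

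Signals of 16 of the 40 tested members did not overlap between the array sets, 12 of them higher on every low-Pcp2 array and 4 higher on every high-Pcp2 array. The sets were made from measured values, so these differences are a description and were not tested. Over all 10315 named genes with a tested probe set, 20.6% did not overlap, 10.3% with the low set above and 10.3% with the high set above. For the members the shares were 40%, 30% and 10%. Without isoflurane replicates 2, 4, 5 and 6, 17 members did not overlap. Leaving out arrays can only raise such a count, and the share of all genes was not counted for that case. The median difference between set means, high minus low on the log2 scale, was -0.50 over the members and 0.07 over all genes. In bulk tissue, fewer cells of a type and less RNA per cell cannot be told apart.

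The Rgs genes carried most of this. Of 15 tested, 9 lay higher on every low-Pcp2 array, 2 on every high-Pcp2 array and 4 overlapped. Among 11 tested alpha subunits 2 did not overlap, among 9 gamma subunits 3, and among 5 beta subunits 0. The set difference had the same sign in the oxygen and the isoflurane arrays for 34 of the 40 members. The share of all genes is not given for this, so the count is no trait of the members.

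**Figure D1:**
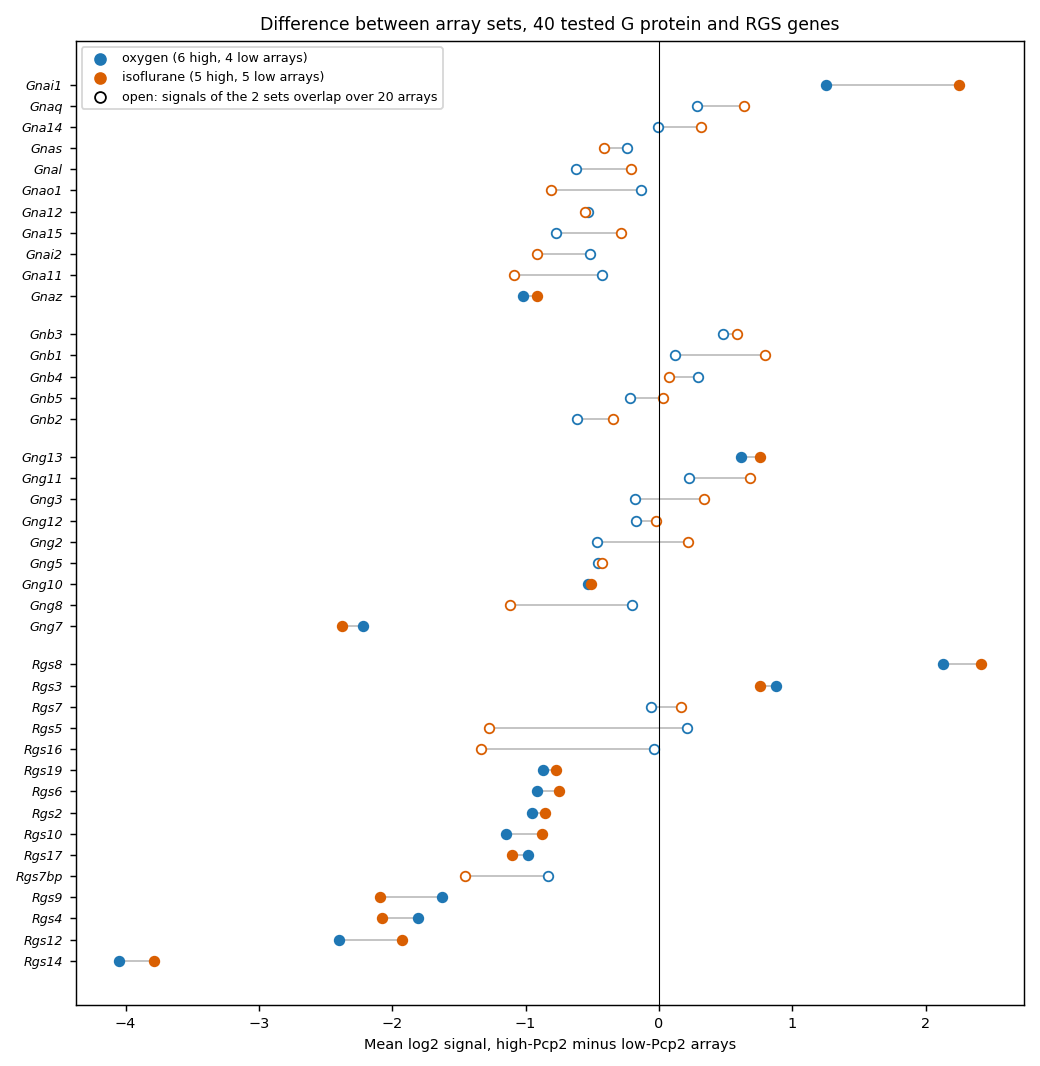
Difference of mean log2 signal between high-Pcp2 and low-Pcp2 arrays (x axis) for each of the 40 tested members (y axis, by family), drawn separately for oxygen and isoflurane arrays. Filled points are the 16 members whose signals do not overlap between the sets over all 20 arrays, with Rgs14 at the far left and Rgs8 at the far right. Rgs5 and Rgs16 have the widest gaps between the groups.

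Rgs4, an abundant cortical RGS protein that acts on the Gi and Gq classes, had signals from 12.37 to 12.80 with a median of 12.52 on the low-Pcp2 arrays. On the high-Pcp2 arrays it ran from 10.38 to 11.03 with a median of 10.54. The sets lay far apart, by 1.93 between means of 12.56 ± 0.12 (SD, n = 9) and 10.63 ± 0.23 (SD, n = 11), a ratio of 3.82. The second probe set of the gene differed in the same direction, by -1.74 high minus low.

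Rgs9, whose long splice form is the striatal RGS protein and whose short form serves photoreceptors, ran from 9.43 to 10.66 with a median of 10.08 on the low set. On the high set it ran from 7.76 to 8.70 with a median of 8.17. The difference was 1.87, with the low set higher, and the top value belonged to isoflurane replicate 10. That array also had the highest summed signal of 6 striatal medium spiny neuron markers, 14.10, against 12.98 to 13.91 on the other low-Pcp2 arrays and 12.08 to 12.59 on the high set. The part of such tissue in the Rgs9 signal was not tested.

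Rgs14 and Rgs12, large RGS proteins that also carry a GoLoco motif, were also higher on every low-Pcp2 array. Rgs14 ran from 8.41 to 9.72 (median 8.94) on the low set and from 2.55 to 6.84 (median 5.39) on the high set. Its difference of 3.86, a ratio of 14.6, is uncertain in size because high-set signals are near the bottom of the scale with an SD of 1.38. Rgs12 ran from 8.37 to 9.68 (median 9.03) on the low set and from 6.14 to 7.73 (median 6.88) on the high set, a difference of 2.11.

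Rgs17, which acts on the alpha subunit Gz among others, ran from 10.41 to 11.07 (median 10.65) on the low set. On the high set it ran from 8.46 to 9.94 (median 9.66). All 5 of its probe sets were lower on the high set, by 0.55 to 1.33. Gnaz, the gene of Gz, also lay higher on every low-Pcp2 array, with 9.34 to 9.93 (median 9.76) against 8.50 to 9.13 (median 8.79). That holds for its brightest probe set, at -0.95 high minus low, while the other one differed by -0.08. The other Rgs genes above on the low set were Rgs10, Rgs2 (best known for acting on Gq), Rgs6 and Rgs19, with set differences of 0.81 to 0.99. On the high set Rgs2 spanned 9.74 to 10.49 and on the low set 10.57 to 11.18, so the gap between the nearest arrays was small.

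Rgs8, an RGS protein of Purkinje cells, was the clearest case in the other direction. It ran from 9.12 to 10.18 (median 9.70) on the high set and from 6.72 to 8.14 (median 7.29) on the low set. The means of 9.70 ± 0.29 (SD, n = 11) and 7.41 ± 0.43 (SD, n = 9) differ by 2.29, a ratio of 4.88, and the top low-set value was again on isoflurane replicate 10. Rgs3 lay above on the high set by 0.82 with its brightest probe set, from 10.20 to 10.64 against 9.03 to 10.05. Its other probe sets differed by -0.59 and -0.13, so the direction holds for that probe set alone.

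**Figure D2:**
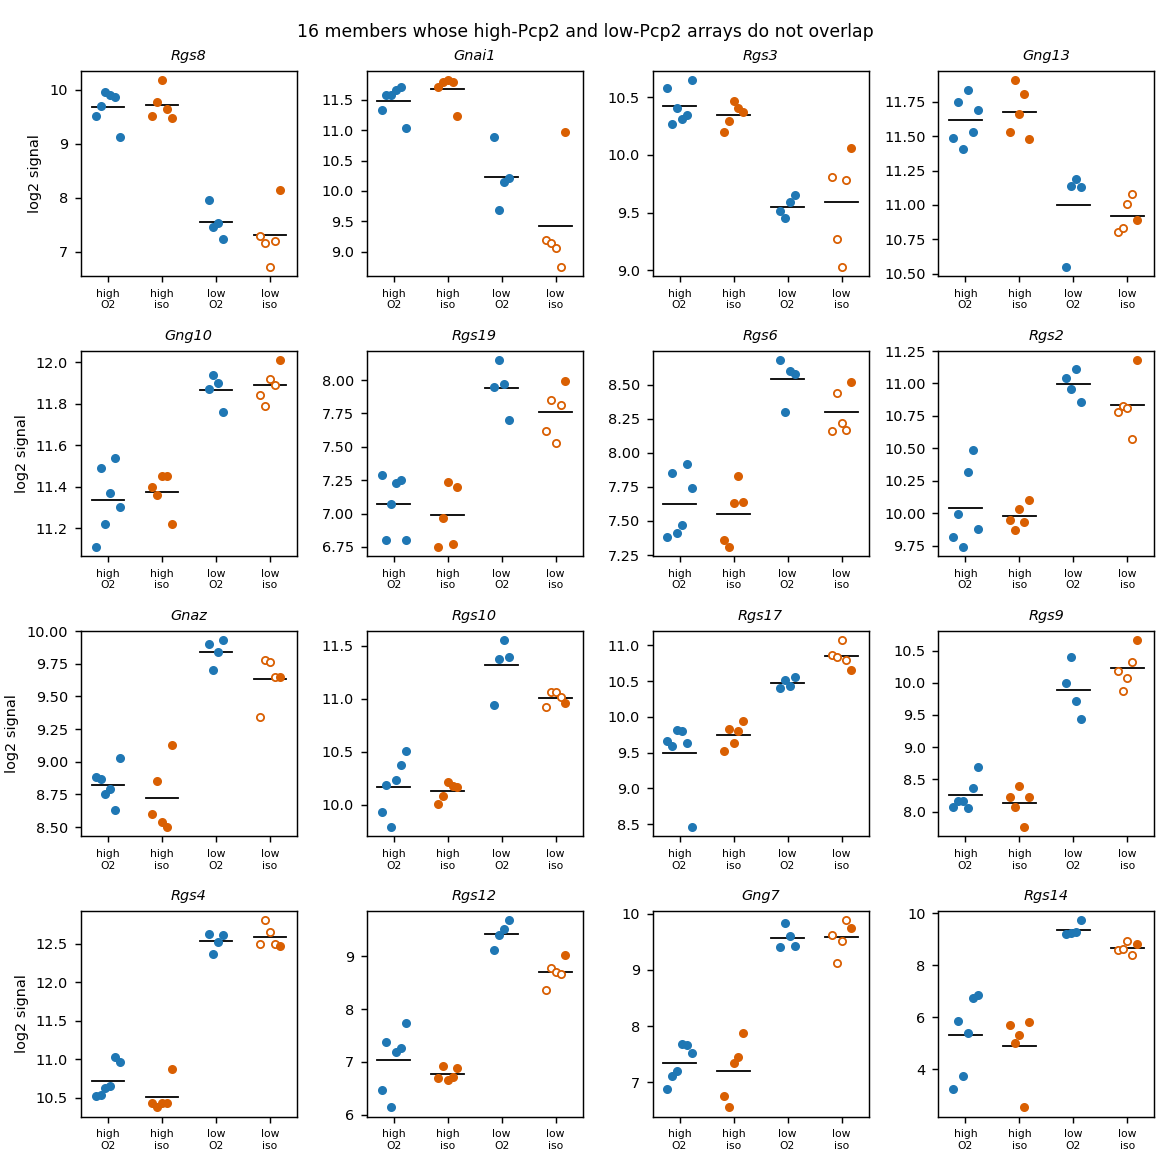
log2 signal (y axis) on each array for the 16 members that do not overlap, in 4 groups: high-Pcp2 arrays of the oxygen (O2) and isoflurane (iso) groups, then low-Pcp2 arrays of both. Points are arrays, bars are means, and open points are isoflurane replicates 2, 4, 5 and 6; the top 4 panels (Rgs8, Gnai1, Rgs3 and Gng13) are higher on the high-Pcp2 arrays and the other 12 lower.

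Among alpha subunits, Gnai1, which inhibits adenylyl cyclase, ran from 11.04 to 11.83 (median 11.67) on the high set and from 8.75 to 10.98 (median 9.69) on the low set. The sets almost touched, through isoflurane replicate 10 at 10.98 and oxygen replicate 1 at 10.89, and the means differed by 1.79, or by 1.19 without the 4 isoflurane arrays that stood apart. Gnai2, of the same class, went the other way by 0.69 with overlapping sets (11.05 to 11.73 low, 10.21 to 11.24 high). Gnao1, the abundant neuronal Go subunit, ran from 11.38 to 12.06 on the low set and from 10.94 to 11.69 on the high set, with overlap. Gnas, the stimulatory subunit, was between 13.61 and 13.97 on the low set and between 13.30 and 13.71 on the high set, and its probe set may match several transcripts of that complex locus. Gnal, the olfactory and striatal stimulatory subunit, overlapped too, with 8.57 to 10.06 on the low set and 8.56 to 9.25 on the high set. The Gq class members Gnaq, Gna11, Gna14 and Gna15 overlapped with set differences of -0.79 to 0.47.

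No beta subunit separated the sets. Gnb1 ran from 11.98 to 13.72 on the low set and from 12.77 to 13.60 on the high set. Its brightest probe set was higher on the high set by 0.49 (0.01 without the 4 isoflurane arrays), while the others differed by -1.02 and -0.09, so Gnb1 has no single direction. Gnb5, the beta subunit that binds RGS proteins of the Rgs7 family, was alike in range, with 11.62 to 12.18 on the low set and 11.36 to 12.02 on the high set. Its partner Rgs7 also overlapped (11.57 to 11.92 low, 11.55 to 11.96 high). Of the other members of that RGS family, Rgs6 and Rgs9 lay higher on the low set, and the anchoring protein Rgs7bp was higher there by 1.19 with overlap.

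Gamma subunits showed both directions. Gng7, the gamma subunit of striatal Golf signalling, ran from 9.13 to 9.88 (median 9.61) on the low set and from 6.56 to 7.88 (median 7.35) on the high set, a difference of 2.29 and a ratio of 4.90. Gng13, known from taste cells and some retinal and brain neurons, ran from 11.41 to 11.91 (median 11.66) on the high set and from 10.55 to 11.19 (median 11.02) on the low set. Its means, 11.65 ± 0.17 (SD, n = 11) and 10.96 ± 0.21 (SD, n = 9), differ by 0.69, and the nearest arrays by little. Gng10 was higher on every low-Pcp2 array, by 0.52, with 11.76 to 12.01 against 11.11 to 11.54. Gng2, Gng3, Gng5, Gng8, Gng11 and Gng12 overlapped.

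The members of chromosome 13 include adjacent pairs with unlike patterns, and the stretches just before their starts are printed for that reason. On the RefSeq annotation of GRCr8, no protein-coding gene lies between Rgs8 and Rgs16, nor between Rgs5 and Rgs4. Rgs8 was higher on the high set by 2.29, while its neighbour Rgs16 overlapped. The Rgs16 difference, high minus low, was -0.03 on oxygen arrays, -1.34 on isoflurane arrays and -0.32 over all arrays but the 4 that stood apart. Rgs4 was lower on the high set by 1.93, whereas Rgs5 overlapped and had no single direction. Its difference, high minus low, was 0.21 on oxygen arrays, -1.27 on isoflurane arrays and 0.15 without the 4. The sequences are the 250 bases before each gene's start, 5′ to 3′ on the gene's strand, at chr13:68366648-68366897 (plus strand) for Rgs8, chr13:68437870-68438119 (plus) for Rgs16, chr13:84380827-84381076 (plus) for Rgs5 and chr13:84475885-84476134 (minus) for Rgs4. Capitals mark exact matches on either strand to the TATA box (searched as TATAAA), the CCAAT box (searched as CCAAT), the GC box (searched as GGGCGG), the E-box (searched as CACGTG) or the cyclic AMP response element (searched as TGACGTCA).
Rgs8: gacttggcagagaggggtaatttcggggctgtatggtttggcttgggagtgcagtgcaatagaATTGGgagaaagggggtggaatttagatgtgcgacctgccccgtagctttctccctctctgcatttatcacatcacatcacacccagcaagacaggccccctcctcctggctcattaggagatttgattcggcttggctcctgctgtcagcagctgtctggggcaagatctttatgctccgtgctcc
Rgs16: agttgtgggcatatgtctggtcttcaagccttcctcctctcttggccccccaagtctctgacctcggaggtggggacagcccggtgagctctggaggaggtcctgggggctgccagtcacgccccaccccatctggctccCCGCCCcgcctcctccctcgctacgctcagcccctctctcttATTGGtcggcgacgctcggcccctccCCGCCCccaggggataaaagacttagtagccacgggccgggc
Rgs5: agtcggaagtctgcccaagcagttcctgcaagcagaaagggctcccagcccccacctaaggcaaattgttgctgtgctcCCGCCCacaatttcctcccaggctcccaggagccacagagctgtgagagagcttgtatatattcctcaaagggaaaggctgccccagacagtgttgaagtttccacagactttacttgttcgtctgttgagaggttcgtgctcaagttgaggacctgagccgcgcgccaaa
Rgs4: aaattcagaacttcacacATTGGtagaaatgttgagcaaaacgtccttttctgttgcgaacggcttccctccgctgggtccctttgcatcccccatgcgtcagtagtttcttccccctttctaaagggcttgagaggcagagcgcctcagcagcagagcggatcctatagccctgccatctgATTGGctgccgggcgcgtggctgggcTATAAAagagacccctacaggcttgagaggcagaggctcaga

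Rgs4 had TATAAA 42 to 37 bases before its start and CCAAT on the other strand 68 to 64 and 232 to 228 bases before it. Rgs8 had 1 match, CCAAT on the other strand, 187 to 183 bases before its start. Rgs16 had GGGCGG on the other strand at 42 to 37 and 110 to 105 bases and CCAAT on the other strand at 68 to 64 bases. Rgs5 had 1 match, GGGCGG on the other strand, 171 to 166 bases before its start. Over all 33469 promoters of the table, windows of this length held TATAAA in 12.9%, CCAAT in 34.0%, GGGCGG in 30.5%, CACGTG in 5.59% and TGACGTCA in 1.59%. Of the members, 40 had an entry, and the shares were 15%, 22.5%, 55%, 7.5% and 2.5%. The median GC content was 61.6% for the members and 51.2% for those 33469 promoters. These are not limited to named genes of the array, so the members are set beside an unlike set. No 2 of the printed matches overlap, and a match is a description and no evidence of binding.

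The isoflurane group was compared with the oxygen group with limma across all 18625 tested probe sets, with the array set as a block. Gna12, an alpha subunit of the G12 class, fell by 0.28 on the log2 scale and was the only member of 40 past an adjusted p of 0.05, with 1 lower and 0 higher. Over all genes, 5.87% were called lower and 1.86% higher in this fit, so 1 of 40 (2.5%) is below that background. The median change was -0.09 over the members and -0.02 over all genes, and 31 of the 40 estimates were below 0. With isoflurane replicates 2, 4, 5 and 6 left out, the members' median was -0.01 and 22 of 40 estimates were below 0.

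On the low-Pcp2 arrays Gna12 had 11.93, 12.30, 12.33 and 12.28 on oxygen replicates 1 to 4. It had 12.02, 11.87, 11.86, 12.11 and 11.86 on isoflurane replicates 2, 4, 5, 6 and 10. These overlap only through oxygen replicate 1. On the high-Pcp2 arrays the 6 oxygen values ran from 11.52 to 11.92 with a median of 11.66, and isoflurane replicates 1, 3, 7, 8 and 9 had 11.25, 11.20, 11.40, 11.36 and 11.72. The fall of 0.28 ± 0.07 (SE, limma with Benjamini-Hochberg adjusted p = 0.028) was seen on 9 of 10 isoflurane arrays set against the oxygen mean of their own array set. Without isoflurane replicates 2, 4, 5 and 6 the change was as large, -0.30, with an adjusted p of 0.16, and in that fit 0% of all genes were called in either direction. The second, dimmer probe set of Gna12 gave -0.59 ± 0.23 (SE) with a limma adjusted p of 0.11. With the 3'/5' ratio of control transcripts as a covariate Gna12 was at -0.18 and was not called, and in that fit 0 of 10315 genes were called. The dimmer probe set differed between the array sets in the opposite direction, by 0.51.

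Of the marker members, Rgs4 changed by -0.09 ± 0.08 (SE), Gng13 by -0.01 ± 0.09 and Rgs9 by 0.09 ± 0.13, none of them past the threshold (limma adjusted p = 0.49, 0.98 and 0.71). With no term for the array set, 0 of 40 members were called, 5 had an unadjusted p under 0.05, and 0.524% of all genes were called.

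Within the high-Pcp2 arrays 0 of 40 members were called by limma, 4 had an unadjusted p under 0.05, and 0% of all genes were called, although 13.4% of genes had an unadjusted p under 0.05. The changes with the lowest unadjusted p included Gnai2 and Gnao1. Gnai2 was at -0.44 ± 0.14 (SE) and Gnao1 at -0.35 ± 0.12 (SE), each with a limma adjusted p of 0.33. Without isoflurane replicate 9, 3 members passed in this set, Gna12, Gnai2 and Gnao1, all lower, against 4.92% of all genes called lower in that fit.

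Within the low-Pcp2 arrays 7 of 40 members were called, 4 lower and 3 higher, against 9.04% of all genes called lower and 6.22% higher. The 7 are 17.5% of the members. With arrays centred on their medians, which moves the median change of all probe sets in this set by -0.21, 13 were called, 11 lower and 2 higher, against 24.1% and 3.11% of all genes. The 3 that rose were RGS genes. Rgs5, a gene known from pericytes, had 8.99, 7.90, 8.58 and 8.12 on oxygen replicates 1 to 4. It had 10.32, 10.14, 9.80 and 10.42 on isoflurane replicates 2, 4, 5 and 6, and 8.63 on isoflurane replicate 10. The 4 stood above every oxygen array and replicate 10 lay among them. The rise of 1.47 ± 0.35 (SE, limma adjusted p = 0.018) came from a mean over both, and on replicate 10 alone the change was 0.23.

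Rgs16, an inducible RGS protein with a daily rhythm in some tissues, had 7.00, 6.10, 7.43 and 7.67 on oxygen replicates 1 to 4. It had 8.58, 8.00, 7.72, 8.40 and 7.98 on isoflurane replicates 2, 4, 5, 6 and 10. Here every isoflurane array, replicate 10 included, lay above every oxygen array. Rgs16 rose by 1.09 ± 0.30 (SE, limma adjusted p = 0.031). With replicate 10 as the only isoflurane array the change was 0.93.

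Rgs17 had 10.41, 10.51, 10.43 and 10.56 on oxygen replicates 1 to 4 and 10.87, 10.84, 11.07, 10.79 and 10.65 on isoflurane replicates 2, 4, 5, 6 and 10. All isoflurane arrays were above all oxygen arrays, and the rise was 0.37 ± 0.10 (SE, limma adjusted p = 0.028). Of its 4 other probe sets, 2 also passed (0.55 and 0.76) and 2 did not (-0.14 and -0.27). With centred arrays the change was 0.16 and was not called. On replicate 10 alone it was 0.17.

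The 4 that fell were Gnb2, Gng3, Rgs12 and Rgs14. Gng3, a gamma subunit of brain neurons, had 12.10, 12.25, 12.33 and 12.32 on oxygen replicates 1 to 4. It had 11.64, 11.64, 11.73 and 11.77 on isoflurane replicates 2, 4, 5 and 6, and 12.09 on replicate 10. The 4 arrays lay clearly below the others, while replicate 10 was next to the lowest oxygen array. The fall was 0.48 ± 0.11 (SE, limma adjusted p = 0.016), and on replicate 10 alone the change was -0.16.

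Rgs12 had 9.11, 9.41, 9.52 and 9.68 on oxygen replicates 1 to 4 and 8.37, 8.77, 8.70, 8.66 and 9.03 on isoflurane replicates 2, 4, 5, 6 and 10. Every isoflurane array was below every oxygen array, and the fall was 0.72 ± 0.16 (SE, limma adjusted p = 0.013). Rgs14 was alike, with 9.18, 9.25, 9.28 and 9.72 on oxygen replicates and 8.59, 8.61, 8.94, 8.41 and 8.82 on isoflurane replicates. It fell by 0.68 ± 0.15 (SE, limma adjusted p = 0.014), again with no overlap. Gnb2, a widely expressed beta subunit, fell by 0.43 ± 0.13 (SE, limma adjusted p = 0.045) with its brightest probe set, while its other probe set gave 0.09. Gnb2 was not called with quantile normalization (adjusted p = 0.073 by limma). On replicate 10 alone the changes of Rgs12, Rgs14 and Gnb2 were -0.40, -0.53 and -0.14. Gnaz was not called with its brightest probe set (-0.20), but its other probe set was, at -0.95 (limma adjusted p = 0.045).

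**Figure D3:**
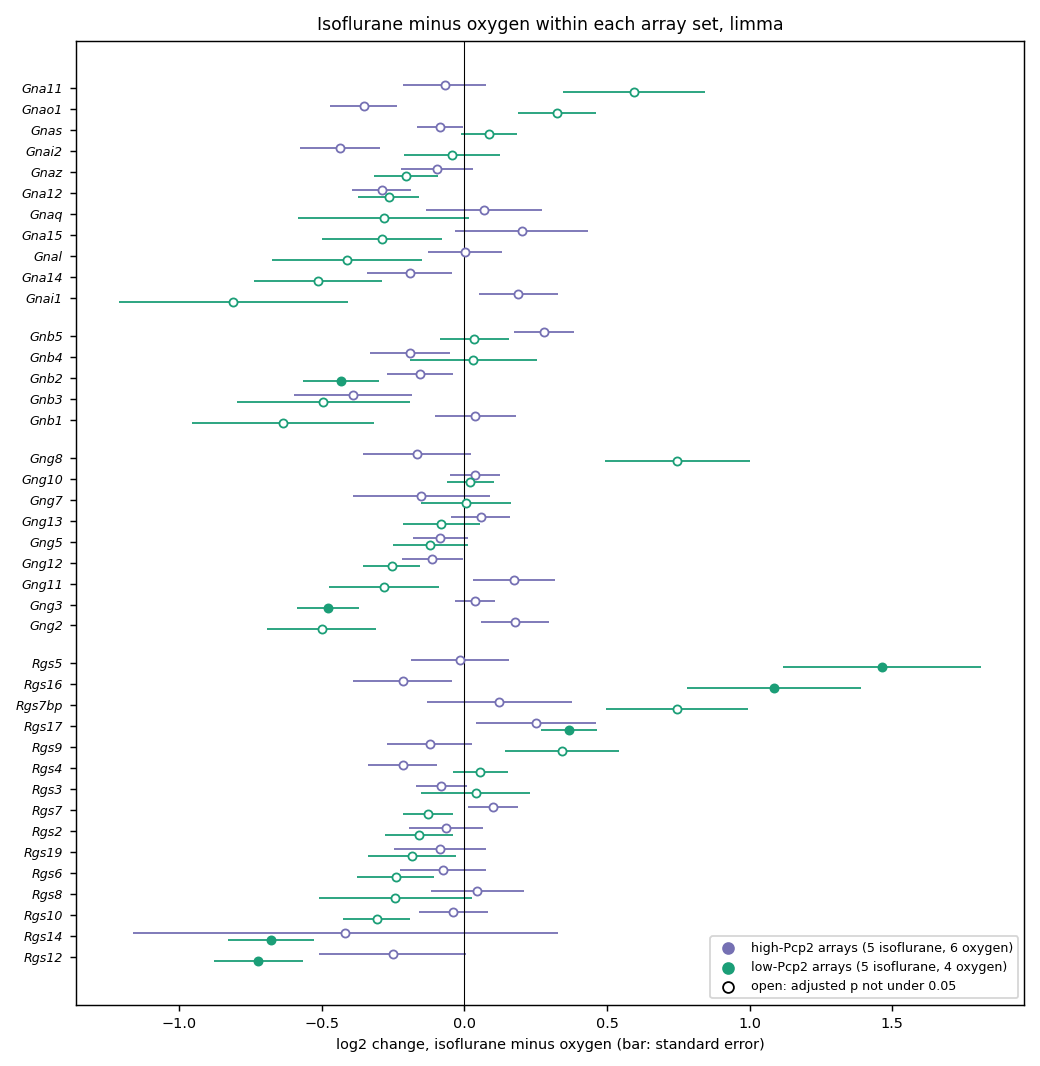
log2 change, isoflurane minus oxygen (x axis), within high-Pcp2 and within low-Pcp2 arrays for each of the 40 tested members (y axis, by family). Points are limma estimates, bars standard errors, and filled points have an adjusted p under 0.05: 7 members within the low set and 0 within the high set.

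Whether the isoflurane change differed between the array sets was tested directly. It did for 4 of 40 members by limma, with 3 higher and 1 lower in the low set, against 4.12% and 2.98% of all genes. With centred arrays it did for 6, of which 2 were higher and 4 lower, and Gnao1 was no longer among them, against 2.16% higher and 18.0% lower of all genes. With the 3'/5' ratio of control transcripts as a covariate it also did for 6, among them Gnao1, Gng3 and Rgs16 but not Rgs5, against 7.14% of all genes. Rgs5 differed by 1.48 ± 0.40 (SE, adjusted p = 0.023), Rgs16 by 1.30 ± 0.35 (SE, adjusted p = 0.022), Gnao1 by 0.68 ± 0.19 (SE, adjusted p = 0.026) and Gng3 by -0.52 ± 0.12 (SE, adjusted p = 0.013). On the high-Pcp2 arrays Rgs5 had 8.03 to 9.09 (median 8.64) in the oxygen group and 8.44, 8.81, 8.60, 8.73 and 8.36 on isoflurane replicates 1, 3, 7, 8 and 9. Rgs16 had 6.73 to 7.31 (median 7.01) in the oxygen group there and 6.71, 6.37, 7.00, 6.88 and 7.03 in the isoflurane group. Both groups overlapped in each case.

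Gnao1 had estimates of opposite sign and similar size in the sets. On low-Pcp2 arrays it had 11.74, 11.38, 11.42 and 11.89 in the oxygen group and 12.05, 12.03, 12.06, 11.95 and 11.58 on isoflurane replicates 2, 4, 5, 6 and 10. On high-Pcp2 arrays it had 11.14 to 11.69 (median 11.49) in the oxygen group and 10.96, 10.94, 11.11, 11.08 and 11.52 on isoflurane replicates 1, 3, 7, 8 and 9. The isoflurane arrays were thus mostly above the oxygen arrays in the low set and mostly below them in the high set. The changes were 0.33 and -0.35, neither called by itself. On replicate 10 alone the change in the low set was -0.03, so the rise there rests on isoflurane replicates 2, 4, 5 and 6. Without the 4 arrays, 0 members passed in the test between sets, and 0.0776% of all genes did.

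**Figure D4:**
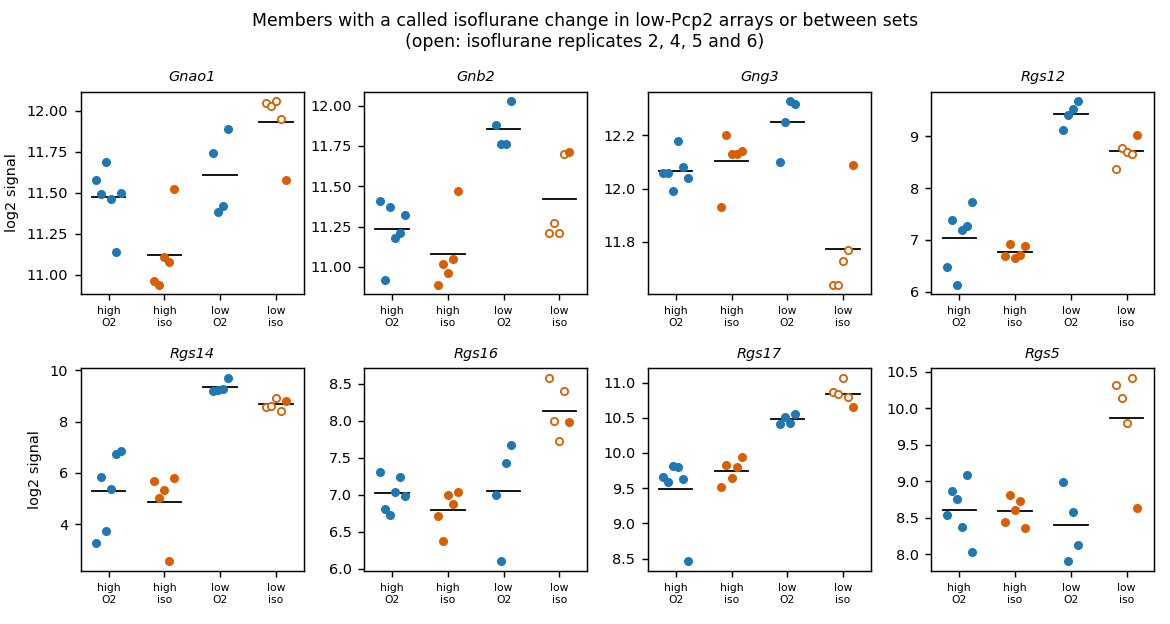
log2 signal (y axis) on each array for the 8 members called within the low-Pcp2 arrays or in the test between array sets, in the 4 groups of set and treatment (O2, oxygen; iso, isoflurane). Points are arrays, bars are means, and open points are isoflurane replicates 2, 4, 5 and 6, which stand above all other arrays for Rgs5 and below them for Gng3.

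The 4 isoflurane arrays differed from the other low-Pcp2 arrays for more members than were called. All 4 lay below every other low-Pcp2 array for 9 of 40 members and above for 5, against 15.0% and 10.2% of all genes. The 9 were Gnai1, Gnal, Gnb1, Gnb2, Gng2, Gng3, Gng12, Rgs2 and Rgs12, and the 5 were Gna11, Gnao1, Rgs5, Rgs7bp and Rgs17. Gnb1 had 12.09, 11.99, 12.36 and 12.16 on the 4, 12.71 to 13.47 on the oxygen arrays and 13.72 on replicate 10. When replicate 10 was left out, 16 members were called within the low set, 9 lower and 7 higher, against 17.5% and 11.7% of all genes. When oxygen replicate 2 was left out, 3 remained, Gng3, Rgs12 and Rgs14, against 8.45% of all genes in either direction.

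Several measures moved with those 4 arrays. The 3'/5' log2 signal ratio of beta-actin, a measure of RNA integrity, was 2.30 to 2.86 on them and 1.21 to 1.98 on the other low-Pcp2 arrays, and that of hexokinase was -0.75 to -0.27 against 1.25 to 2.47. That of GAPDH overlapped, at 0.24 to 0.33 and 0.30 to 0.48. With the mean 3'/5' ratio as a covariate, 0 members and 0% of all genes were called within the low set. That mean was 0.71 to 0.88 on the 4, 0.92 on replicate 10 and 0.92 to 1.59 on the low oxygen arrays. It nearly follows the treatment group there, so this fit cannot tell the ratio and the treatment apart. The summed signal of 6 cortical projection neuron markers was 13.94 to 14.07 on the 4, 13.02 to 13.49 on the low oxygen arrays and 12.64 on replicate 10. Camk2a, Neurod2 and Fezf2 of that list were higher on the 4 (Camk2a 13.63 to 13.76 against 11.85 to 12.96), while Tbr1 was lower (3.99 to 5.38 against 6.47 to 8.31) and Emx1 and Neurod6 overlapped. The granule cell sum was 9.51 to 9.91 on the 4 and 10.24 to 12.36 on the other low-Pcp2 arrays. The sum of 3 choroid plexus markers was 8.31 to 8.81 and 9.56 to 13.69. Among these 3, Ttr was lower on the 4 (7.63 to 8.38 against 9.39 to 13.7), while Folr1 and Kl overlapped. Of the astrocyte markers, Gfap (11.75 to 12.22 against 12.61 to 13.01) and Aldh1l1 (8.73 to 9.09 against 9.45 to 9.78) were lower on the 4. The others, Aqp4, Slc1a2 and Slc1a3, overlapped. Beside Rgs5, the summed signal of 4 mural cell markers was 9.31 to 9.73 on the 4, 9.37 to 9.84 on the low oxygen arrays and 9.37 on replicate 10. Of those markers Abcc9 was higher on the 4 (7.98 to 8.52 against 7.35 to 7.75), Acta2 lower (7.58 to 7.82 against 8.18 to 8.84), and Pdgfrb and Kcnj8 overlapped. The summed signal of 4 endothelial markers was 11.54 to 12.06, 11.46 to 11.69 and 11.33 in the same order. The part of these in the results was not tested.

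Genes around the G proteins were counted in the same block fit, and those called were all lower in the isoflurane group. Of 29 listed effectors, 22 were tested and 1 was lower, Prkar1b, a regulatory subunit of protein kinase A, at -0.28. The median of the list was -0.06. Of 25 regulators and chaperones, 17 were tested and 4 were lower, with a median of -0.23. These were Gprin1, a G protein-regulated inducer of neurite outgrowth (-0.59), Ppp1r9b, the scaffold spinophilin (-0.98), Grk2, a receptor kinase (-0.76), and Nucb1, a calcium-binding protein that binds alpha subunits (-0.43). Of 50 receptors, 29 were tested and 6 were lower, with a median of -0.22. Over all genes, 5.87% were called lower and 1.86% higher in this fit, with a median of -0.02.

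The 6 receptors were both subunits of the GABA-B receptor, Gabbr1 (-0.39) and Gabbr2 (-0.33), the adrenergic Adra2c (-0.46), the metabotropic glutamate receptors Grm2 (-0.39) and Grm4 (-0.56), and the somatostatin receptor Sstr2 (-0.49). All 6 are known to couple to the Gi and Go class, as do many others of the list. On isoflurane replicates 2, 4, 5 and 6, Prkar1b, Gprin1, Ppp1r9b, Grk2, Nucb1, Gabbr1 and Sstr2 lay below every other low-Pcp2 array. Gabbr2, Adra2c, Grm2 and Grm4 overlapped there. No gene of the lists was called higher in this fit. Without the 4 arrays 0 of each list were called, in a fit that called 0 of 10315 genes. The medians were then -0.08, -0.21 and -0.19 for effectors, regulators and receptors. Within the low-Pcp2 arrays 3 effectors were called, Prkar1b and Adcy2 lower and Plcb4 higher (0.57), beside 5 regulators and 5 receptors, all lower, where 9.04% of all genes were called lower and 6.22% higher. On replicate 10 alone the medians were 0.02, -0.12 and -0.11 for effectors, regulators and receptors. Within the high-Pcp2 arrays 0 of each list were called, in a fit that called 0 of 10315 genes.

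Members of the visual G proteins were highest on 1 array. Gngt1, the gamma subunit of rod transducin, had 8.82 on oxygen replicate 9 and from the floor of 0 to 2.06 on the other 19 arrays. Gngt2, the cone gamma subunit, had 9.73 there and 3.67 to 6.65 elsewhere. Gnat2, the cone alpha subunit, had 6.59 there and 0.08 to 4.57 elsewhere, and Gnb3, the cone beta subunit, 9.11 there and 6.72 to 8.29 elsewhere. For all of these the array stood above every other. Gnat1, the rod alpha subunit, did not follow, with 4.43 there and 2.44 to 5.58 elsewhere.

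Other genes of phototransduction and of the pineal gland were looked up after these values were seen, in a list of 20 that includes the 5 members just named. In it 11 genes were highest on oxygen replicate 9, against 2.59% of all named genes, a share given as a description. They include Pdc, the beta-gamma binding protein phosducin (9.35 against 1.65 to 5.53), Pde6g, a phosphodiesterase subunit (11.1 against 5.26 to 7.54), Sag, the arrestin of rods and pineal cells (7.77 against 1.43 to 4.93), the guanylate cyclase activators Guca1a (8.47 against 1.45 to 5.80) and Guca1b (8.32 against 5.03 to 6.36), and Asmt, which makes melatonin (7.13 against 2.10 to 5.30). Aanat, the rate-limiting enzyme of melatonin synthesis, had 6.41 there and 3.52 to 6.49 elsewhere, and Crx, a transcription factor of photoreceptors and pinealocytes, had 3.69 and 0.90 to 4.10. Rgs9 had 8.37 on this array, within the 7.76 to 8.70 of its set. Leaving out oxygen replicate 9 kept Gna12 called in the fit with the array set as a block, at -0.28 with a limma adjusted p of 0.034.

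**Figure D5:**
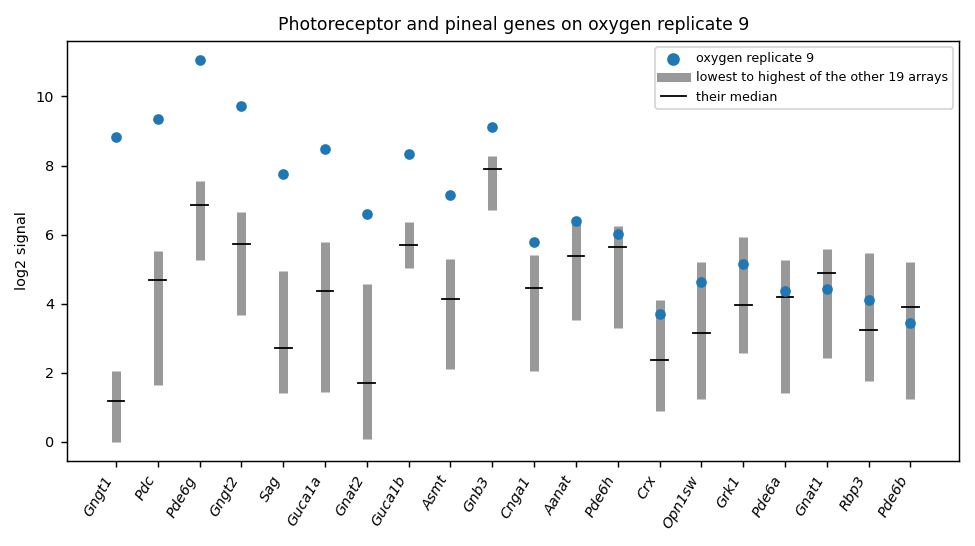
log2 signal (y axis) of 20 phototransduction and pineal genes (x axis) on oxygen replicate 9 (points), with the range of the other 19 arrays (grey bars) and their median (black lines), in the order of the gap to the highest other array. In the 11 genes on the left the point lies above the bar, with the widest gap at Gngt1, and in the other 9 it lies within it.

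The remaining untested members had low or scattered signal. Gnat3, the taste alpha subunit gustducin, ran from 1.03 to 5.25 over all arrays. Rgs1 and Rgs18, RGS proteins of blood and immune cells, had set means lower on the high set by 2.38 and 1.32, with overlapping ranges (3.02 to 6.13 low and 0.91 to 4.61 high for Rgs1, 6.84 to 7.22 low and 2.92 to 7.60 high for Rgs18). Both lie near Rgs2 on chromosome 13. The summed signal of 5 microglia markers was 11.69 to 12.37 on the low set and 10.71 to 11.49 on the high set. Among them Aif1 was higher on every low-Pcp2 array, while C1qa, C1qb, Csf1r and Cx3cr1 overlapped, with higher means on the low set. The Cx3cr1 means were close, at 7.14 and 7.06. The part of these markers in the Rgs1 and Rgs18 values was not tested. Rgs22 overlapped, with 3.63 to 6.18 and 3.46 to 5.94.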

How the data were processed

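The deposited values were linear intensities of Affymetrix rat arrays, 1 per rat. The submitters' processing notes name MAS5 and the Affymetrix Expression Console; versions, settings and detection calls are not given in the sources used here. On every array the mean trimmed by 2% at each end was 500.1 to 500.2, so changes are relative to an array's average signal. Here values under 1 were raised to 1 and log2 was taken. Probe sets with 1 symbol in the platform annotation were named, with symbols updated by gene ID on GRCr8 (20758 of 20826 matched). Probe sets Gnai1 shares with Gnai3 were left out, as was Gnb1l, which is no subunit. Probe sets with a mean log2 above the 40th percentile (6.62) were tested, 18625 of 31042, with limma 3.58.1 in R 4.3.3 (intensity trend, two-sided, Benjamini-Hochberg over all tested). The p-values measure the spread between rats, labelled as biological replicates. Array sets were parted at a linear Pcp2 signal of 4096.

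The members, the lists, the array sets and the alternatives were chosen with earlier results of these data known. Full values were given to Rgs4, Gng13 and Rgs9, to members called in the block fit or in the test between sets, to up to 6 with the largest difference in each direction among those that do not overlap (4 were higher on the high set), and to the 2 brightest of each family. Sums of markers are log2 of summed linear signal. Promoters are RefSeq sequences of GRCr8 and say nothing of the array. The number of arrays limits the precision.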

Additional observations from a re-analysis of the deposited data

Results flagged for a closer look

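Each member was examined for a single array far from the others of its array set and treatment group (4 to 6 arrays), and 24 of 192 such groups had one (12.5%), where chance gives about 1 in 20. Isoflurane replicate 10 stood out among isoflurane arrays of the low set in Gnai1 (10.98, others 8.75 to 9.19), Gnb1 (13.72, others 11.99 to 12.36), Gnb4 (9.07), Gnao1 (11.58) and Gngt2 (4.05). The others of that group are replicates 2, 4, 5 and 6. Isoflurane replicate 9 stood out in the high set in Gnai1 (11.23), Gnai2 (10.94), Gnb2 (11.47), Gnb5 (11.61) and Rgs4 (10.87, others 10.38 to 10.44). Oxygen replicate 9 stood out in Gngt1 (8.82) and Gnb3 (9.11), and oxygen replicate 10 was low in Gnaq (6.56), Rgs17 (8.46) and Rgs18 (2.92). Oxygen replicate 1 was low in Gna12 (11.93) and Gng13 (10.55), and oxygen replicate 7 in Gna15 (5.56). In isoflurane arrays, replicate 8 was low in Gnat1 (2.79) and Rgs14 (2.55), replicate 3 in Gng2 (9.75) and Gng8 (6.51), replicate 1 in Gng3 (11.93), and replicate 4 was high in Gna15 (7.51).

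The isoflurane change differed between the array sets, by the test of the difference itself, in Rgs5 (1.48), Rgs16 (1.30), Gnao1 (0.68) and Gng3 (-0.52), each given as the change in low-Pcp2 minus high-Pcp2 arrays.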

How the results depend on the processing

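The 16 members that do not overlap between array sets were the same 16 with arrays centred on their medians or quantile normalized. The count was 16 to 19 when 1 array was left out, with Gna12, Gnai2 and Gnas added without oxygen replicate 10 and Rgs7bp without oxygen replicate 4. Leaving out an array can only raise this count, and the share of all genes was not counted there. With the array set as a block, 1 member was called. In that fit 797 of 10315 genes were called. The count was 0 with no term for the array set (54 genes called) and with the replicate block (18 genes). It was 0 with the 3'/5' ratio as a covariate or without isoflurane replicates 2, 4, 5 and 6 (0 genes in each). When 1 array was left out, the count was 0 to 3. It was 3 without isoflurane replicate 9, where 1635 of 10315 genes were called. It was 2 without oxygen replicate 6 or 7 or isoflurane replicate 10 (958, 708 and 1059 genes). It was 0 without oxygen replicate 2, 3 or 4 or isoflurane replicate 1, 3, 4 or 5 (301 to 509 genes). Gna12 had -0.28 under the replicate block with a limma adjusted p of 0.094, but deviations of equal-numbered arrays correlated at -0.26 to 0.23, so the numbers do not pair the rats. Within the low set, 7 were called (1574 of 10315 genes). With the covariate, which nearly follows the treatment group there, 0 members and 0 genes were called. The count was 4 with a filter at the 60th percentile (29 members tested), where 1343 of 7873 genes were called. It was 13 with centred arrays, 11 of them lower, where 2812 of 10315 genes were called, 2491 of them lower. Centring moved the median change within that set by -0.21, and the called members moved with it, Rgs17 to 0.16, no longer called. Leaving out 1 array gave 3 to 16 there, where 703 to 3014 of 10315 genes were called. Without isoflurane replicate 2 or 4 it gave 4 (703 and 721 genes). Within the high set it gave 0 to 3, with 652 genes called without isoflurane replicate 9 and 0 in each other fit. In the test between sets it gave 1 to 10, which was 1 without isoflurane replicate 2 (376 genes) and 10 without replicate 10 (1900 genes). That test gave 0 without the 4 arrays. For the other 19 members with full values the block fit was repeated under 624 alternatives in all; 1 was called, Rgs12 without oxygen replicate 7, and 46 had the other sign, none of these called. No called change reversed.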
